A study of Mus musculus with 19 samples.

Results

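The desmosome genes measured here were Dsg1a, Dsg1b, Dsg2, Dsg3, Dsc1, Dsc2, Dsc3, Dsp, Jup and Pkp1, chosen by name as genes of the junction. They are 10 of the 34807 genes in the count table. RNA of whole tissue was sequenced from 15 mouse skin tumours and 4 pieces of normal skin. Ivl tumours (n = 6, genotype Ivl:BRAFV600E), K5 tumours (n = 5, K5:BRAFV600E) and K14 tumours (n = 4, K14:BRAFV600E) carried a BRAF allele that a tamoxifen-inducible Cre switches on, and the tumours are labelled squamous cell carcinoma. Normal skin (n = 4) was wild type and came from control littermates. All mice were female and on a C57BL/6J background, and in the tumour mice recombination was induced at 7 to 20 weeks of age. The labels give no induction age for normal skin and do not say whether it was treated with tamoxifen. The Ivl promoter drives Cre in differentiating keratinocytes, in the study both suprabasal cells and committed cells of the basal layer. The K5 (Krt5) and K14 (Krt14) promoters drive it in basal keratinocytes, which the study takes as 1 population that expresses both keratins. Ivl tumours thus differ from K5 and K14 tumours in the cells that first carried the allele. The drug was applied to shaved back skin, tamoxifen for Ivl mice and 4-hydroxytamoxifen for K5 and K14 mice, so drug and genotype cannot be told apart. The labels do not say whether each tumour came from a separate mouse, so p-values measure the spread between these libraries. The K5 and K14 groups were compared with each other and then treated as 1 group of 9 tumours (K5/K14), the way the study handled them.

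Desmosomes are adhesive junctions that join the keratin networks of neighbouring keratinocytes and give the epidermis its resistance to mechanical stress. Desmogleins and desmocollins are the cadherins that span the membrane and bind those of the next cell. Their tails bind plakoglobin and the plakophilins, and desmoplakin ties this plaque to keratin filaments. Cadherins change as keratinocytes mature, with Dsg3 and Dsc3 strongest in the lower layers of mouse epidermis and Dsg1 and Dsc1 in the upper ones. Dsg2 is the desmoglein of simple epithelia and heart and is weak in interfollicular epidermis.

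Several properties of the libraries touch every value below. Totals were 45715309 to 72609771 counts per library, and the smallest count of any desmosome gene in any library was 641, so counting error was small beside the spread between libraries. Ivl tumours 1, 2 and 3 and K5 tumour 1 stood apart as a set: for 96.6% of 13954 genes their mean differed by less than 0.1 log2 from that of the remaining 15, in which skin is included, and this held for all 10 desmosome genes. The authors had adjusted the counts for a sequencing batch that the labels do not give. The sizes of the batches described in the study match this set and the remainder, but their libraries are not named. Each comparison was therefore repeated within the 15 libraries outside this set. Levels are counts per unit of library size (CPM) after TMM scaling, the trimmed mean of M values, in which skin took factors of 1.43 to 1.66 and tumours 0.806 to 1.15. On this scale the median gene was lower than in skin by a log2 fold change of -0.46 in Ivl tumours and -0.60 in K5/K14 tumours. Markers of the cells in each tissue also differed. The summed level of 12 epithelial genes was 4258 to 7688 CPM in skin, 10899 to 59191 CPM in Ivl tumours and 43103 to 67502 CPM in K5/K14 tumours. That of 8 skeletal muscle genes was 2424 to 7314 CPM in skin, 5.07 to 4352 CPM in Ivl tumours and 6.597 to 489 CPM in K5/K14 tumours. Krt14 alone made up a large part of the epithelial sums, with means of 2976 CPM in skin, 30237 CPM in Ivl and 39797 CPM in K5/K14 tumours. The mean log2 level over the 12 epithelial genes differed less, at 7.48 in skin, 8.77 in Ivl tumours and 9.16 in K5/K14 tumours. Ivl tumours 1, 2 and 3, of the set that stands apart, held 10899, 37864 and 33029 CPM of the epithelial genes. Their muscle sums were 5.07, 4352 and 1506 CPM. Ivl tumours 4, 5 and 6 held 51117, 59191 and 52146 CPM of the epithelial genes and 8.67, 7.94 and 503 CPM of the muscle genes. The part of these markers in the results was not tested. In whole tissue, a difference in the number of keratinocytes and one in RNA per keratinocyte cannot be told apart.

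Promoters of Jup (plakoglobin, chr11:100397741-100398040, minus strand) and Dsp (desmoplakin, chr13:38151044-38151343, plus strand) are printed, the members matched in the RefSeq table used. Each runs from 250 bases before to 50 bases after the start (RefSeq, GRCm38.p6), and capitals mark GC boxes (GGGCGG, or CCGCCC for the other strand).
Jup: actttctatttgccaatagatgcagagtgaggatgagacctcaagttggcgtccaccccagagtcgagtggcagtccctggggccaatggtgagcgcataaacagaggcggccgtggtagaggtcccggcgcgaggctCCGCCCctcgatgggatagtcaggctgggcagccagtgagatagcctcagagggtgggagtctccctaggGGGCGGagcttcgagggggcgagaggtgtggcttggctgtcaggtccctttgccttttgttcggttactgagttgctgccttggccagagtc
Dsp: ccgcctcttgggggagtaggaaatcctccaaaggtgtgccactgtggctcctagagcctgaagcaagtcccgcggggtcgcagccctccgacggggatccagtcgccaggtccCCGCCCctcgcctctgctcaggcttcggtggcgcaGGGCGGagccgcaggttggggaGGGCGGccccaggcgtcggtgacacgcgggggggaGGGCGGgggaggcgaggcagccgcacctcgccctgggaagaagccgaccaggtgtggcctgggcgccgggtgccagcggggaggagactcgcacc
The Jup window held 2 GC boxes, beginning 112 and 42 bases before the start. The Dsp window held 4, beginning 137, 102, 80 and 45 bases before it. A GC box stood in 35.7% of 32851 promoters of this length. Neither window held the AP-1 letters TGANTCA, found in 7.81% of promoters, or the Grainyhead letters AACCGGTT, found in 0.146%, on either strand. These letters are a description of the windows, not of binding.

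Per kilobase of exon, Dsp had the highest mean level of the desmosome transcripts in every group and Dsg2 the lowest. In normal skin the mean level was 240 CPM per kb for Dsp, 140 for Dsc3, 126 for Pkp1, 81.0 for Dsg1a, 78.4 for Jup, 38.4 for Dsc1, 36.5 for Dsg3, 21.4 for Dsg1b, 8.90 for Dsc2 and 5.30 for Dsg2. Ranges over the 4 skin libraries overlapped between Dsp and Dsc3, Dsc3 and Pkp1, Dsg1a and Jup, and Dsc1 and Dsg3, and the first of each pair was the higher in 4, 3, 3 and 2 of the 4 libraries respectively. The order in K5/K14 tumours was Dsp (445 CPM per kb), Pkp1 (430), Dsc1 (330), Jup (261), Dsc3 (251), Dsg1a (166), Dsg3 (145), Dsg1b (105), Dsc2 (64.6) and Dsg2 (2.57). In Ivl tumours Dsp stood at 461 CPM per kb, Pkp1 at 442, Dsc1 at 278 and Jup at 244, and Dsg2 at 3.92. In both tumour groups the ranges of neighbours in the order overlapped everywhere except above Dsg2, although Dsc3 was above the next gene in every tumour. The 10 genes summed to 5303 ± 775 CPM in skin (SD, n = 4), 14046 ± 4026 CPM in Ivl tumours (n = 6) and 13896 ± 3673 CPM in K5/K14 tumours (n = 9).

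**Figure D1:**
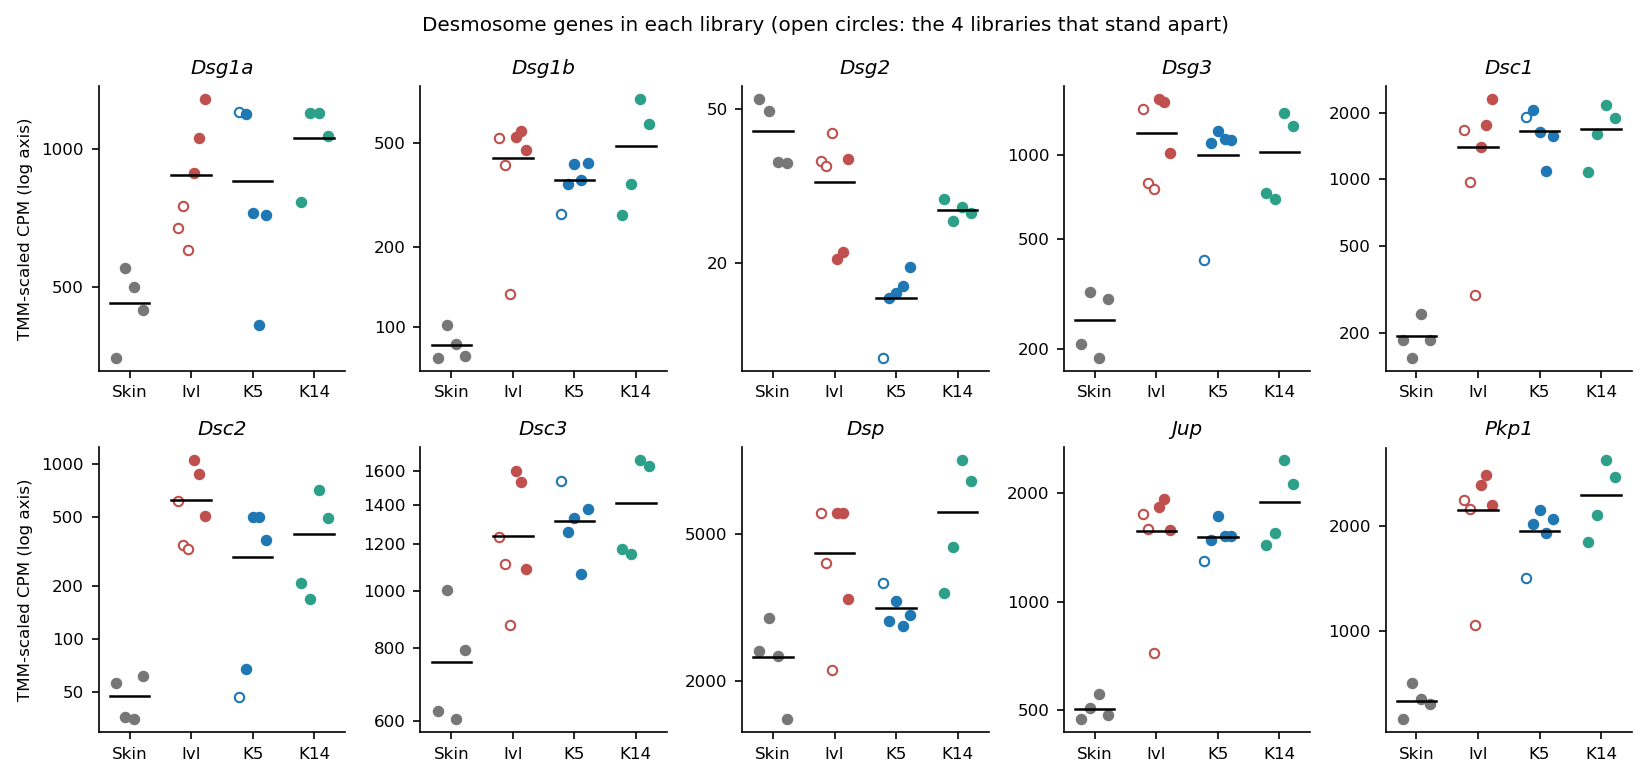
Level of each desmosome gene in every library, in CPM on a log axis, with 1 point per library, coloured by group, a line at each group mean and open circles for the 4 libraries that stand apart. Tumour libraries of Dsc1, Dsg1b, Jup and Pkp1 all lie above the 4 skin libraries, whereas Dsg2 of K5/K14 tumours lies below them.

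All 7 cadherin genes lie on mouse chromosome 18 (GRCm38), the desmocollins from 19960930 (start of Dsc3) to 20114871 (end of Dsc1) on the minus strand and the 4 desmogleins from 20310811 (start of Dsg1a) to 20604521 (end of Dsg2) on the plus strand. The plaque genes lie apart, with Dsp on chromosome 13 from 38151294 to 38198577 (plus strand), Jup on chromosome 11 from 100368958 to 100397763 (minus strand) and Pkp1 on chromosome 1 from 135871395 to 135919207 (minus strand).

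Tumours of both origins were compared with normal skin, to ask whether the junction of the keratinocyte differs in the tumours. Against skin, 9 of the 10 desmosome genes were higher in Ivl tumours and none was lower at an adjusted p under 0.05 (edgeR quasi-likelihood test), when 20.4% of all 32031 genes tested were raised and 15.5% lowered. In K5/K14 tumours 9 were higher and Dsg2 was lower, against 23.2% raised and 38.9% lowered over all genes. Within the 15 libraries the counts were 9 higher and 1 lower in both groups, where 22.2% of all genes were raised and 32.7% lowered in Ivl tumours, and 23.9% and 42.3% in K5/K14 tumours. The 10 genes had a median log2 fold change of 1.72 in Ivl tumours and 1.75 in the K5/K14 group. For 3 of the 9 raised genes, Dsg1a, Dsc3 and Dsp, the direction depended on the scaling, as given further on. The comparisons share their skin libraries.

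In every Ivl tumour the level was above every skin library for 7 genes, namely Dsg1a, Dsg1b, Dsg3, Dsc1, Dsc2, Jup and Pkp1, which was so for 13.2% of all genes. The same held in K5/K14 tumours for 6 genes, Dsg1b, Dsg3, Dsc1, Dsc3, Jup and Pkp1, against 16.7% of all genes. Dsg2 was below every skin library in all 9 K5/K14 tumours, as were 24.6% of genes.

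Among the desmocollins, Dsc1 and Dsc2 rose most. Dsc1, the desmocollin of upper epidermal layers, stood at 187, 155, 246 and 187 CPM in skin. Its lowest, median and highest levels were 297, 1539 and 2311 CPM in Ivl tumours and 1076, 1631 and 2174 CPM in K5/K14 tumours. All 15 tumours lay above all skin, the lowest being Ivl tumour 3. It was 7.24-fold higher in Ivl tumours (log2 fold change 2.86 ± 0.40 (SE), adjusted p = 2.6e-05, edgeR) and 8.61-fold higher in K5/K14 tumours (3.11 ± 0.39, adjusted p = 4.2e-06).

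Dsc2, the desmocollin found most widely among epithelia, varied more among K5/K14 tumours than any other member. Skin libraries held 55.8, 35.8, 34.6 and 61.6 CPM. Ivl tumours ran from 329 through a median of 562 to 1054 CPM, and K5/K14 tumours from 46.7 through 367 to 714 CPM. K5 tumours 1 and 2, at 46.7 and 67.4 CPM, lay at the level of skin, while the other 7 K5/K14 tumours held 170 CPM or more. The coefficient of variation was 67.3% over K5/K14 tumours and 29.3% over skin. Dsc2 was 13.2-fold higher than skin in Ivl tumours (log2 fold change 3.73 ± 0.69, adjusted p = 0.00036, edgeR) and 7.26-fold higher in K5/K14 tumours (2.86 ± 0.64, adjusted p = 0.0011).

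Dsc3, a desmocollin of the basal layer, moved least of the family. Skin libraries held 626, 1003, 605 and 794 CPM. Ivl tumours held 874 to 1598 CPM with a median of 1172, and K5/K14 tumours 1069 to 1665 CPM with a median of 1328. The lowest Ivl tumour overlapped with the highest skin library, and K5/K14 tumours did not overlap with skin. On the main scale Dsc3 was 1.64-fold higher in Ivl tumours (log2 fold change 0.71 ± 0.19, adjusted p = 0.0078, edgeR) and higher by 0.84 ± 0.18 in K5/K14 tumours (adjusted p = 0.00081), but with library totals the log2 differences were -0.01 and 0.02.

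Among the desmogleins, Dsg3 and Dsg1b rose and Dsg2 did not. Dsg3, the basal desmoglein and autoantigen of pemphigus vulgaris, stood at 209, 321, 186 and 303 CPM in skin. It ran from 755 through 1240 to 1590 CPM in Ivl tumours and from 421 through 1128 to 1414 CPM in K5/K14 tumours, all above skin. Its log2 fold change was 2.23 ± 0.32 in Ivl tumours (adjusted p = 3.4e-05, edgeR) and 1.99 ± 0.31 in K5/K14 tumours (adjusted p = 3.3e-05). K5 tumour 1 was the lowest tumour.

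Desmoglein 1, the autoantigen of pemphigus foliaceus, is encoded in mice by the neighbouring genes Dsg1a, Dsg1b and Dsg1c. Of all 101-base stretches in their exons, 24.4% in Dsg1a and 32.6% in Dsg1b also occurred in another Dsg1 gene, so the division of reads between them is uncertain. Dsg1b stood at 76.0, 101, 85.6 and 77.1 CPM in skin, and ran from 133 through 494 to 555 CPM in Ivl tumours and from 266 through 359 to 732 CPM in K5/K14 tumours. No tumour overlapped with skin. Dsg1b was 5.12-fold higher than skin in Ivl tumours (log2 fold change 2.36 ± 0.35, adjusted p = 3.7e-05, edgeR) and 4.89-fold higher in K5/K14 tumours (2.29 ± 0.33, adjusted p = 1.7e-05).

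Dsg1a was the larger Dsg1 gene in every group. It stood at 350, 549, 499 and 445 CPM in skin, at 601 to 1283 CPM in Ivl tumours (median 819) and at 414 to 1202 CPM in K5/K14 tumours (median 1065). K5 tumour 4, at 414 CPM, lay within the range of skin. On the main scale Dsg1a was 1.90-fold higher in Ivl tumours (adjusted p = 0.014, edgeR) and higher by a log2 fold change of 1.03 ± 0.26 in K5/K14 tumours (adjusted p = 0.0028), whereas with library totals the log2 differences were 0.19 and 0.22 and did not pass. Without skin library 1 its adjusted p in Ivl tumours was 0.052. With the 3 Dsg1 genes summed, the log2 fold change was 1.26 ± 0.25 in Ivl tumours (adjusted p = 0.00067) and 1.31 ± 0.24 in K5/K14 tumours (adjusted p = 0.00018).

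Dsg2, the desmoglein of simple epithelia, was the one member that fell. Skin libraries held 53.1, 49.5, 36.5 and 36.2 CPM. The 9 K5/K14 tumours ran from 11.4 through 19.5 to 29.3 CPM, all below skin, and the 6 Ivl tumours from 20.5 through 36.1 to 43.4 CPM, overlapping with it. Its log2 fold change was -1.04 ± 0.23 in K5/K14 tumours (adjusted p = 0.00084, edgeR) and -0.43 ± 0.25 in Ivl tumours (adjusted p = 0.17). In Ivl tumours the value rested on the set that stands apart. Ivl tumours 1, 2 and 3 held 36.6, 35.6 and 43.4 CPM, and within the 15 libraries the log2 fold change was -0.73 with an adjusted p of 0.028. An antisense gene, Gm16090, overlaps 330 bases of its exons, and whether reads were counted by strand is not stated.

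Of the plaque genes, Jup and Pkp1 rose in both tumour groups on the main scale and with library totals. Scaled to epithelial genes, neither passed in K5/K14 tumours, as given further on. The direction of Dsp depended on the scale. Jup, encoding plakoglobin, which binds the cadherin tails, stood at 472, 507, 555 and 486 CPM in skin. It ran from 722 through 1673 to 1935 CPM in Ivl tumours and from 1295 through 1522 to 2468 CPM in K5/K14 tumours, all above skin. The log2 fold change was 1.64 ± 0.24 in Ivl tumours (adjusted p = 3.2e-05, edgeR) and 1.74 ± 0.23 in K5/K14 tumours (adjusted p = 5.9e-06).

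Pkp1, encoding plakophilin 1, which strengthens desmosomes of the upper epidermis, stood at 561, 715, 641 and 622 CPM in skin. Its range was 1040 to 2793 CPM in Ivl tumours (median 2327) and 1422 to 3065 CPM in K5/K14 tumours (median 2095), with no overlap with skin. The log2 fold change was 1.81 ± 0.24 in Ivl tumours (adjusted p = 2.3e-05, edgeR) and 1.77 ± 0.23 in K5/K14 tumours (adjusted p = 6.7e-06).

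Dsp, encoding desmoplakin, the link to keratin filaments, stood at 2418, 2959, 2334 and 1574 CPM in skin. Ivl tumours ran from 2139 through 4934 to 5699 CPM, and K5/K14 tumours from 2823 through 3468 to 7916 CPM. The lowest tumours of both groups overlapped with skin. On the main scale Dsp was 1.92-fold higher in Ivl tumours (log2 fold change 0.94 ± 0.34, adjusted p = 0.036, edgeR) and higher by 0.89 ± 0.32 in K5/K14 tumours (adjusted p = 0.021), but with library totals the log2 differences were 0.20 and 0.06 and did not pass. The call in Ivl tumours was lost without Ivl tumour 1, 4 or 5 (adjusted p 0.062, 0.071 and 0.071) or skin library 1, 3 or 4 (0.065, 0.074 and 0.11). That in K5/K14 tumours was lost without skin library 4 (adjusted p = 0.078). An antisense gene, Gm10129, overlaps 499 bases of Dsp exons, with the same limit on strand as for Dsg2.

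How far the scaling decides these directions was measured with 2 other scalings, by library totals and by the mean log2 level of the 12 epithelial genes, among which are Krt5, Krt14 and Cdh1. With library totals, 6 members were higher and 1 lower in each tumour group, where 8.95% of all genes were raised and 48.3% lowered in Ivl tumours, and 10.1% and 64.5% in K5/K14 tumours. The 6 were Dsg1b, Dsg3, Dsc1, Dsc2, Jup and Pkp1, and the lower one was Dsg2 (log2 fold change -1.11 in Ivl and -1.86 in K5/K14 tumours). With epithelial scaling, 5 members were higher in Ivl tumours (Dsg1b, Dsg3, Dsc1, Dsc2 and Pkp1) and 2 lower (Dsg2 at -1.64 and Dsc3 at -0.56), where 3.51% of all genes were raised and 70.2% lowered. Jup, at 0.33, did not pass in Ivl tumours. For K5/K14 tumours only Dsc1 (1.39) and Dsg1b (0.58) then passed as higher, and Dsg2 (-2.71), Dsc3 (-0.81), Dsp (-0.80) and Dsg1a (-0.61) as lower, where 3.22% of all genes were raised and 81.9% lowered. In these tumours Jup (0.03), Pkp1 (0.08), Dsc2 and Dsg3 passed in neither direction. Only Dsc1 and Dsg1b were raised in both tumour groups on all 3 scales. Dsg2 was lowered in K5/K14 tumours on all 3.

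**Figure D2:**
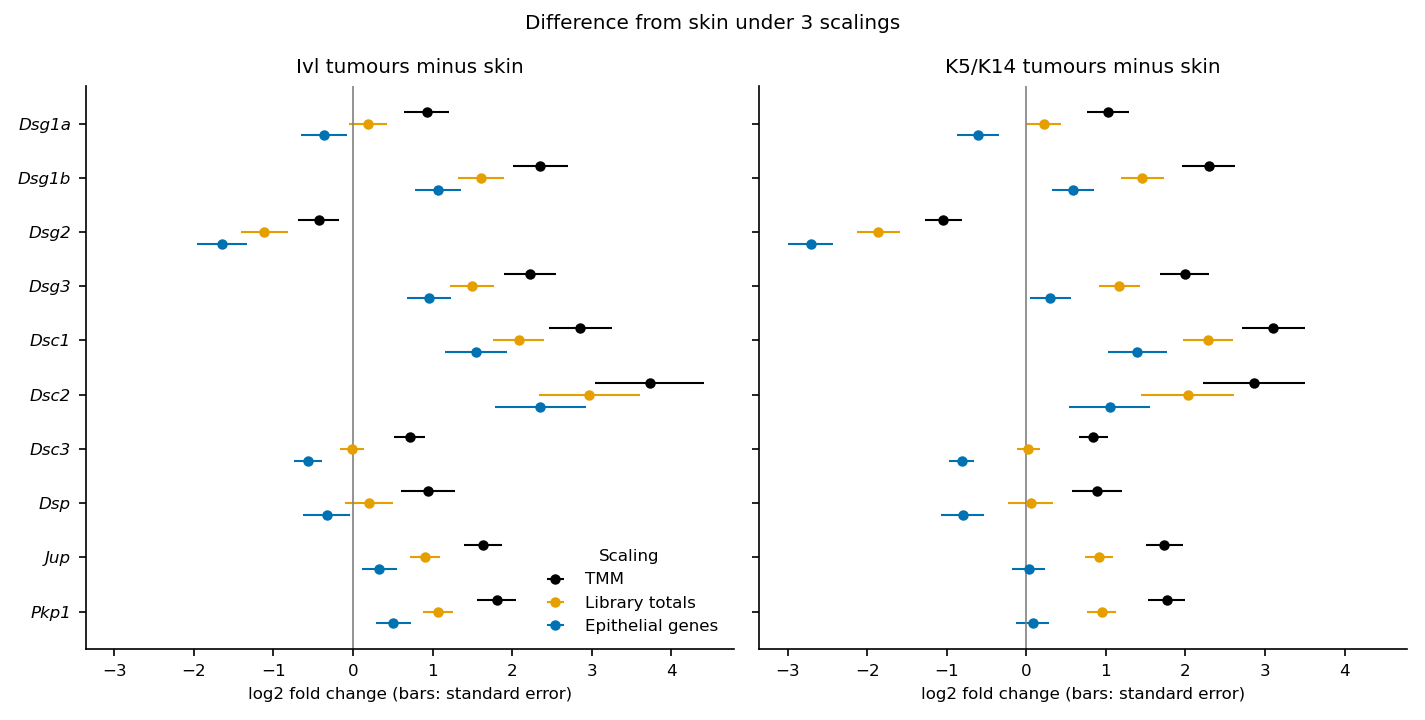
Log2 fold change against normal skin of each desmosome gene (points, with SE bars) for Ivl tumours and K5/K14 tumours under 3 scalings: the trimmed mean of M values, library totals and 12 epithelial genes. Dsc1 stays above 0 in each, Dsg2 below 0, and Dsc3, Dsp and Dsg1a fall from above 0 to near or below it. With the epithelial genes, Jup and Pkp1 of K5/K14 tumours also fall to near 0.

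Ratios of members within 1 library do not depend on the scaling, but they do carry the authors' batch adjustment of the counts. In the set of Ivl tumours 1, 2 and 3 and K5 tumour 1, the mean of each member lay within 0.1 log2 of that of the remaining 15. The part of the adjustment in the ratios was not tested. Of the desmocollin signal per kilobase in skin, 74.0% ± 6.98 (SD, n = 4) came from Dsc3, 21.1% ± 6.49 from Dsc1 and 4.85% ± 1.63 from Dsc2. In Ivl tumours Dsc3 made up 39.3% ± 10.5 (n = 6), Dsc1 41.9% ± 13.3 and Dsc2 18.8% ± 4.99. Shares in K5/K14 tumours were 39.2% ± 3.47 (n = 9), 50.9% ± 6.25 and 9.88% ± 6.02. The share of Dsc3 was 66.9% or more in every skin library and 57.1% or less in every tumour. Among the desmogleins, Dsg1a made up 56.1% ± 4.42 in skin, 35.7% ± 7.48 in Ivl tumours and 40.0% ± 12.2 in K5/K14 tumours. Dsg3 made up 25.2% ± 4.52, 39.0% ± 6.605 and 34.7% ± 9.46, and Dsg1b 14.9% ± 1.26, 24.3% ± 5.74 and 24.6% ± 4.09. Dsg2 made up 3.77% ± 1.15 in skin, 1.02% ± 0.595 in Ivl tumours and 0.631% ± 0.224 in K5/K14 tumours, and its share in every tumour was below that in every skin library.

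**Figure D3:**
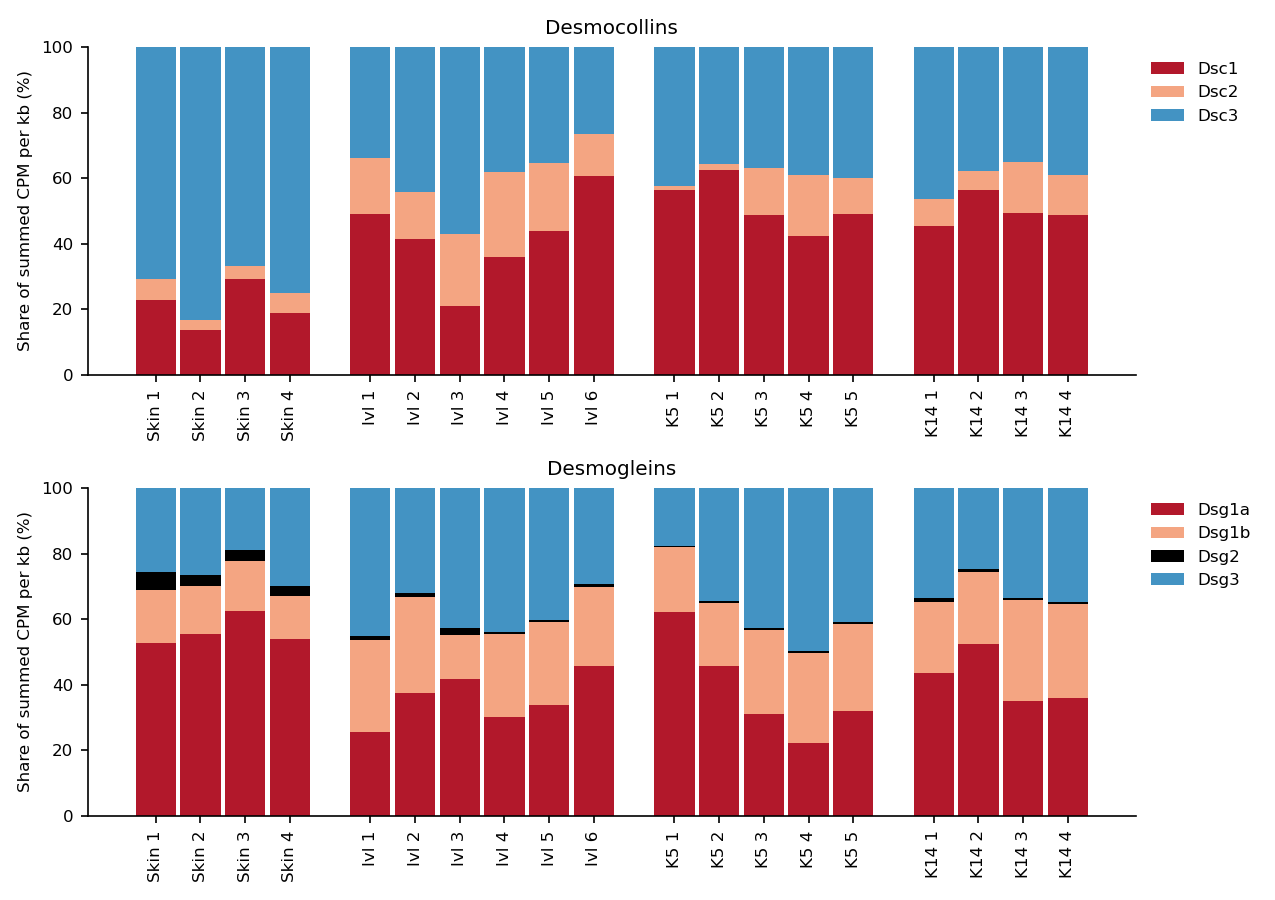
Share of each desmocollin and each desmoglein in the summed level per kilobase of its family, in percent, with 1 stacked bar per library. Dsc3 takes 66.9% or more of the desmocollin signal in each skin library and 57.1% or less in each tumour.

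In all, 5 ratios were tested in 4 comparisons with two-sided exact permutation tests over libraries, adjusted over the 20 tests. The log2 count ratio of Dsc1 to Dsc3 was -1.956 ± 0.59 in skin (SD, n = 4) and 0.27 ± 0.25 in K5/K14 tumours (n = 9), a difference of 2.23 (exact permutation p = 0.0014, the smallest the design can give, adjusted p = 0.014). In Ivl tumours it was -0.03 ± 0.88 (n = 6), a difference of 1.92 (exact permutation p = 0.019, adjusted p = 0.048), with Ivl tumour 3 within the range of skin. The ratio of Dsc2 to Dsc3 was -4.03 ± 0.58 in skin and -1.10 ± 0.39 in Ivl tumours, which did not overlap, a difference of 2.93 (exact permutation p = 0.0048, the smallest possible, adjusted p = 0.019). In K5/K14 tumours it was -2.43 ± 1.38, a difference of 1.596 that did not pass (exact permutation p = 0.056, adjusted p = 0.10). Markers of the layers differed as well, while Dsg1 against Dsg3, the other pair of an upper and a lower cadherin, moved the opposite way, as given below. Of 9 suprabasal keratinocyte genes 8 rose and 1 fell in both tumour groups, with median log2 fold changes of 3.124 (Ivl) and 3.19 (K5/K14), and summed levels of 3397 to 7388 CPM in skin, 11714 to 68768 CPM in Ivl and 16738 to 60768 CPM in K5/K14 tumours. Of 8 basal keratinocyte genes 5 rose and none fell in Ivl tumours and 7 rose and 1 fell in K5/K14 tumours, with medians of 1.24 and 1.72. With epithelial scaling the medians were 1.84 and 1.64 for the suprabasal list and -0.05 and 0.06 for the basal list. The part of these markers in the ratios was not tested.

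Dsg2 fell against Dsg3 in both tumour groups without overlap. The log2 ratio was -2.52 ± 0.47 in skin, -5.19 ± 0.89 in Ivl tumours and -5.55 ± 0.57 in K5/K14 tumours (exact permutation p = 0.0048 and 0.0014, adjusted p = 0.019 and 0.014). The summed Dsg1a and Dsg1b counts fell against Dsg3 in Ivl tumours, by 0.97 on the log2 scale (exact permutation p = 0.014, adjusted p = 0.041). The difference in K5/K14 tumours was -0.66 and did not pass (adjusted p = 0.15). Both differences ran opposite to those of Dsc1 against Dsc3. Pkp1 rose against Dsp by 0.85 in Ivl tumours (exact permutation p = 0.0048, adjusted p = 0.019) and by 0.91 in K5/K14 tumours (exact permutation p = 0.0056, adjusted p = 0.019). Thus 5 ratios differed between Ivl tumours and skin and 3 between K5/K14 tumours and skin. Within the 15 libraries only 3 Ivl tumours remain, the exact permutation test cannot give a p under 0.029, and no ratio passed after adjustment (differences 2.32, 3.19, -0.90, -3.22 and 0.94 in the order above for Dsc1/Dsc3, Dsc2/Dsc3, Dsg1/Dsg3, Dsg2/Dsg3 and Pkp1/Dsp). Without K5 tumour 1, Dsc2/Dsc3 differed between K5/K14 tumours and skin by 1.92 (exact permutation p = 0.012) and Dsg1/Dsg3 by -0.83 (exact permutation p = 0.016). Both passed when adjusted together with the other comparisons over all their libraries, and neither did when adjusted with the comparisons within the 15 libraries (adjusted p = 0.057 for each), where 3 ratios passed.

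**Figure D4:**
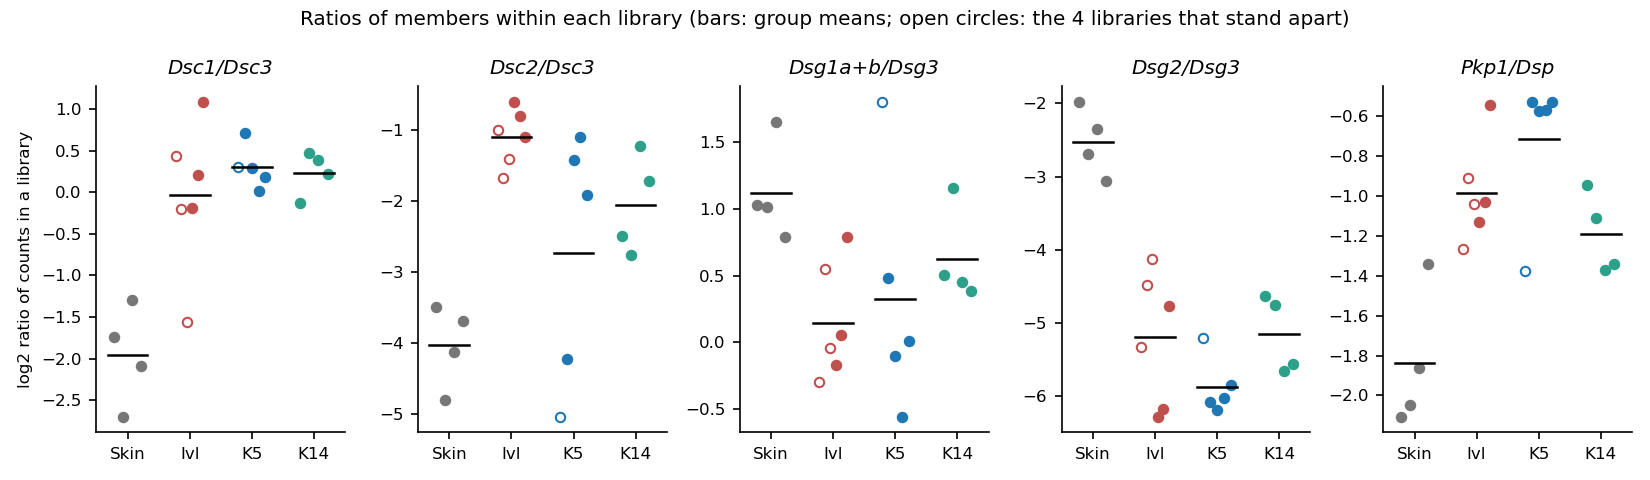
Log2 ratio of counts of 2 members within each library for 5 ratios, with 1 point per library by group, a line at the group mean and open circles for the 4 libraries that stand apart. Tumours lie below skin for Dsg2/Dsg3 without overlap, and K5/K14 tumours lie above skin for Dsc1/Dsc3.

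The next question was whether the junction genes differ with the cell of origin, that is between Ivl and K5/K14 tumours. No desmosome gene passed (edgeR), where 2.36% of all genes did. DESeq2 called none of the 10 either, where it called 2161 of 32031 genes. At an unadjusted p under 0.05 there was 1 member with each tool. Of all 32031 genes, 6754 were under it with edgeR and 6384 with DESeq2, so 1 of 10 was below the share of all genes. In edgeR the member was Dsg2, higher in Ivl tumours by 0.61 ± 0.21 (adjusted p = 0.11). Within the 15 libraries this difference was 0.23 with an adjusted p of 0.78. Dsc2 was higher in Ivl tumours by 0.87 ± 0.47 (adjusted p = 0.30). With epithelial scaling over all libraries Dsg2 (1.06, adjusted p = 0.015), Dsc2 (1.30, adjusted p = 0.040) and Dsg3 (0.66, adjusted p = 0.042) passed as higher in Ivl tumours, where 18% of all genes passed in either direction and the median gene was higher by 0.50. Within the 15 libraries with that scaling no member passed. No ratio passed either. Dsc2 against Dsc3 came nearest, higher in Ivl tumours by 1.33 (exact permutation p = 0.031, adjusted p = 0.069). The levels of the remaining members differed by 0.25 or less on the log2 scale.

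Between K5 and K14 tumours no desmosome gene passed (edgeR), and neither did any other gene, so that 0% of genes were called. DESeq2 called 174 of 32031 genes and edgeR within the 15 libraries 17 of 31971, with no member among them. At an unadjusted p under 0.05 there were 2 members with edgeR and 2 with DESeq2, where 1945 and 2040 of 32031 genes were. Dsg2 held 11.4, 16.2, 16.8, 17.5 and 19.5 CPM in K5 tumours and 29.3, 25.7, 28.0 and 27.0 CPM in K14 tumours. It was lower in every K5 than in every K14 tumour, by a log2 difference of -0.76 ± 0.21 (adjusted p = 0.59). The groups did not overlap in either direction for 4.44% of all genes. Dsp held 3685, 2914, 3301, 2823 and 3019 CPM in K5 tumours and 3468, 4627, 7916 and 6946 CPM in K14 tumours. The groups overlapped in K5 tumour 1 and K14 tumour 1, and the difference was -0.87 ± 0.28 (adjusted p = 0.70). Of the ratios none passed, the nearest being Dsg2 against Dsg3, lower in K5 tumours by 0.72 (exact permutation p = 0.056). Within the 15 libraries, which leave out K5 tumour 1, the groups did not overlap for 2 ratios. Pkp1 against Dsp was higher in K5 tumours by 0.64, and Dsg2 against Dsg3 differed by -0.89. Neither passed after adjustment (exact permutation p = 0.029 and adjusted p = 0.057 for each).

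Genes that work beside the members were described from lists chosen by function. Their counts on the main scale stand against the shares of all genes given above, 20.4% raised and 15.5% lowered in Ivl tumours and 23.2% and 38.9% in K5/K14 tumours. Counts with the other scalings stand against the shares given for those scalings. Of 6 other desmosome genes, 3 rose and none fell in Ivl tumours, and 3 rose and 3 fell in K5/K14 tumours, with median log2 fold changes of 0.59 and 0.49. Those that rose were Perp, a tetraspan desmosome protein (2.22 ± 0.31 and 2.38 ± 0.30), Cdsn, the adhesive corneodesmosin (2.12 ± 0.32 and 2.45 ± 0.32), and Pkp3, the plakophilin of stratified epithelia (1.66 ± 0.21 and 1.78 ± 0.20). In K5/K14 tumours Dsg4, the desmoglein of the hair cortex, fell by 4.0 on the log2 scale (adjusted p = 0.0080, edgeR), and Pkp2, the plakophilin of heart and simple epithelia, and Dsg1c also fell, with log2 fold changes of -1.91 and -0.80. The summed level of 8 hair follicle genes was 12.7 to 2906 CPM in skin, 5.15 to 1601 CPM in Ivl tumours and 8.71 to 1070 CPM in K5/K14 tumours.

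Of the 4 keratins that desmoplakin holds, all 4 rose in both comparisons (median log2 fold change 3.08 for Ivl tumours, 2.76 for K5/K14 tumours). Krt14, of the basal layer, rose by 3.74 ± 0.43, Krt1, of the suprabasal layers, by 3.19 ± 0.59 and Krt5 by 2.33 ± 0.33 in K5/K14 tumours. In Ivl tumours Krt1 rose by 3.72 ± 0.63, Krt14 by 3.34 ± 0.43 and Krt10 by 2.81 ± 0.59. Each of these 4 keratins also rose under library totals. With epithelial scaling, which uses Krt5 and Krt14, 4 rose in Ivl tumours and 3 in K5/K14 tumours. Of 9 adherens junction genes, 5 rose and none fell in Ivl tumours and 6 rose and 1 fell in K5/K14 tumours, with medians of 0.70 and 0.95. Nectin4, an immunoglobulin-like adhesion receptor, rose by 1.4 ± 0.21 and 1.53 ± 0.21, Ctnnd1, encoding the catenin p120, by 1.06 ± 0.20 and 1.05 ± 0.19, and Cdh1, encoding E-cadherin, by 0.90 ± 0.17 and 1.04 ± 0.16. With library totals 1 adherens junction gene rose and 2 fell in each group, where 48.3% of all genes fell in Ivl and 64.5% in K5/K14 tumours. With epithelial scaling none rose, 6 fell in Ivl and 8 in K5/K14 tumours. These falls were near the 70.2% and 81.9% of all genes lowered on that scale.

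Of 6 plakins, relatives of desmoplakin, 2 rose and 2 fell in Ivl tumours and 2 rose and 3 fell in K5/K14 tumours, the latter near the background shares. Those that rose were Evpl, encoding envoplakin (1.70 ± 0.27 in Ivl and 1.61 ± 0.26 in K5/K14 tumours), and Ppl, encoding periplakin (1.55 ± 0.28 and 1.26 ± 0.27), both of which join the cornified envelope. With epithelial scaling neither passed. Eppk1, encoding epiplakin, fell (-1.25 ± 0.44, adjusted p = 0.036, and -2.52 ± 0.40, adjusted p = 4.8e-05, edgeR), as did Plec, encoding plectin (-0.97 ± 0.26 and -0.66 ± 0.23). Dst also fell in K5/K14 tumours (-0.81 ± 0.20). Between Ivl and K5/K14 tumours no gene of these 4 lists passed on the main scale. With library totals Eppk1 (1.49, adjusted p = 0.049) and Afdn (0.64, adjusted p = 0.044) were higher in Ivl tumours, and with epithelial scaling Eppk1, Afdn, Dst and Ppl were (adjusted p 0.011, 0.0094, 0.015 and 0.032, edgeR), whereas within the 15 libraries none passed.

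**Figure D5:**
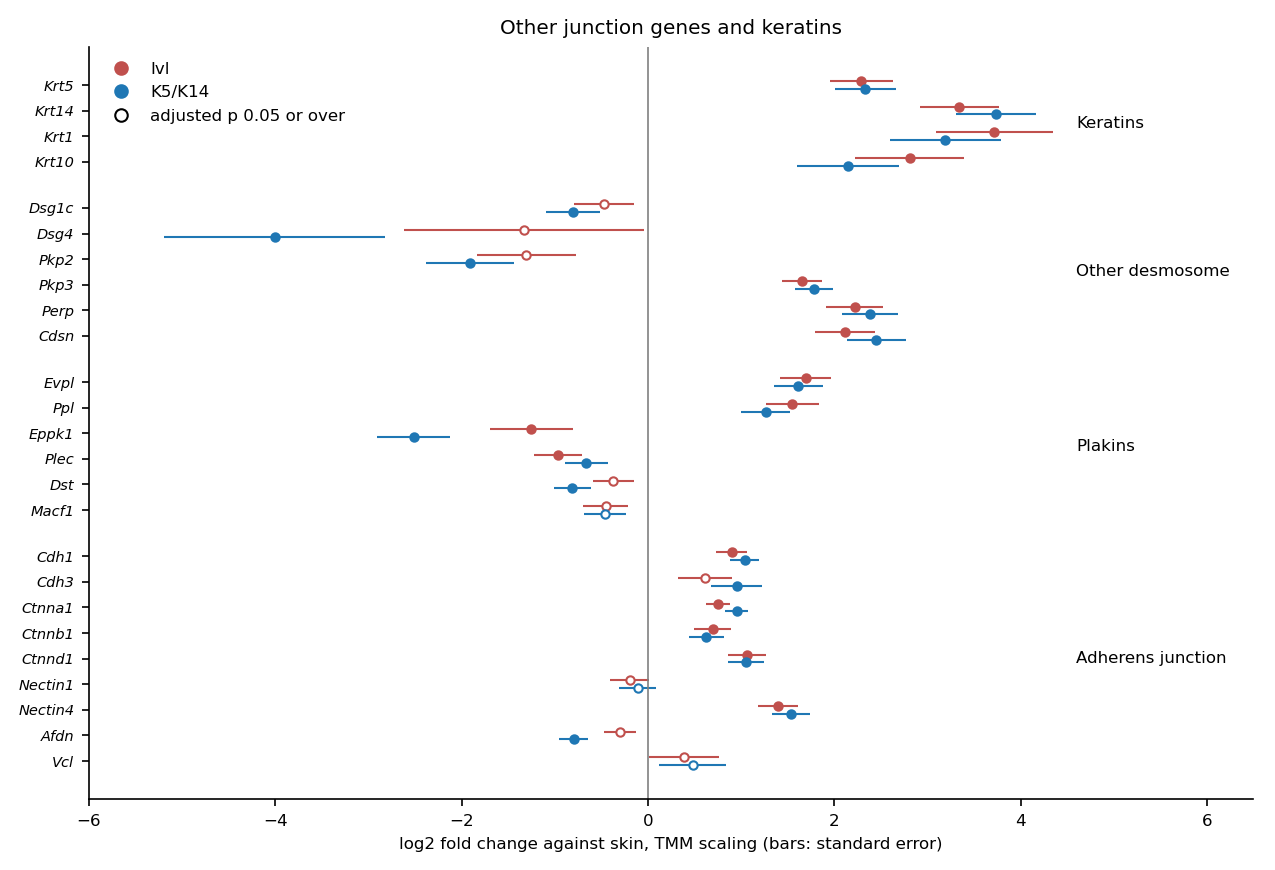
Log2 fold change against normal skin of keratin, other desmosome, plakin and adherens junction genes in Ivl and K5/K14 tumours on the main scale (points, with SE bars), filled at an adjusted p under 0.05 and open otherwise. Krt14 and Krt1 lie highest, and Eppk1 and Dsg4 lie lowest in K5/K14 tumours.

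The members were also compared over the 15 tumours, whose values share the scaling and the batch adjustment. Pearson correlations of log2 CPM over the 45 pairs had a median of 0.49 and ran from -0.49 (Dsg2 and Dsc3) to 0.97 (Dsg1b and Pkp1). Over the 11 tumours outside the set that stands apart the median was 0.51, and Dsg2 and Dsc3 stood at -0.05. Jup and Pkp1 correlated at 0.96 and Dsg1b and Jup at 0.97 (0.94 and 0.92 over the 11 tumours). Dsp followed Jup at 0.82 (0.90) and Pkp1 at 0.80 (0.89). Dsg3 and Dsc2 correlated at 0.79 (0.68), and Dsg1a and Dsc1 at 0.63 (0.81). Dsg1a and Dsg1b, which share sequence, correlated at 0.34 (0.39). These values are descriptions over tumours of all 3 genotypes.

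Over the 15 tumours 14946 genes were compared, with the members among them but left out of the ranking. Fam160a1 was the most similar to Dsg1b (r = 0.97), Pkp1 (0.97) and Jup (0.95), and stood at 0.94, 0.93 and 0.91 over the 11 tumours. Jup was next followed by Pkp3 (0.95, and 0.85 over the 11). Dsp was nearest to Cep170b (0.96 and 0.95), and Dsc1 to 4930413G21Rik (0.97 and 0.91) and Tmprss13, a membrane serine protease (0.96 and 0.89). Dsc2 was nearest to Cadm4, a cell adhesion molecule (0.96 and 0.95), S100a7a (0.93 and 0.97) and Lmnb1 (0.90 and 0.89). Dsg3 was nearest to Lrp8 (0.93 and 0.91), Dsc3 to Ap1g1 (0.90 and 0.83), Dsg1a to Map2 (0.92 and 0.96) and Dsg2 to Per3, a circadian clock gene (0.94 and 0.83). These are the top of a ranking over all genes and say nothing of shared control.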

How the data were processed

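Per the labels, poly(A) libraries were made with a strand-specific kit and sequenced in pairs at 2 facilities. Per the labels and the study's methods, the authors trimmed reads with Trim Galore, aligned them with HISAT2 2.1.0 to GRCm38, counted genes with featureCounts (Subread 1.6.3) and adjusted the table for a batch with ComBat-seq. The deposited values are therefore estimated counts, whole numbers not scaled for depth. The study's methods also describe ribosomal RNA depletion and longer reads for Ivl tumours prepared by the commercial facility, and whether any library here was among them is not given in the sources used here. Strand use and the batch of each library are not given in the sources used here. The design had assumed plain counts, and the same count test was kept. Of 34807 genes, 34672 matched GENCODE on GRCm38 and 135 did not.

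The filter asked for 5 counts in 1 or more libraries and left 32031 genes, all 10 members among them, which were tested with edgeR 4.0.16 (R 4.3.3; TMM scaling, robust quasi-likelihood F test, two-sided) on all 19 libraries, with Benjamini-Hochberg adjustment over all genes and a threshold of 0.05. K5 and K14 were compared in a fit of 4 groups. Log2 CPM used a prior count of 2. SE came from the fold change and F. Ratios were log2 of counts scaled to the TMM library size with 2 added, tested by exact permutation over libraries (numpy 2.4.6). Length was the exonic length of all transcripts. The test was checked on simulated data. All 10 members were named, up to 3 genes per list and comparison by size of change among those past the threshold, and the 3 nearest genes per member. Pkp2, Dsg1c, Plec and Dst lie outside that rule and were named, after their values were seen, to complete the count of a list. Members and lists were chosen with earlier results of these data known. Alternatives were DESeq2 1.42.0, other scalings and filters, the 15 libraries outside the set, that set as a covariate, the replicate number as a block, and each library left out.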

Additional observations from a re-analysis of the deposited data

Results flagged for a closer look

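In 40 groups of 4 to 6 libraries (10 genes in 4 groups), 4 held a library far from the others by Dixon's criterion, when chance gives about 5% of groups, or 2. In Ivl tumour 3, Dsg1b stood at 133 CPM against 410 to 555 CPM in the other Ivl tumours. Jup stood at 722 CPM there against 1586 to 1935 CPM, and Pkp1 at 1040 CPM against 2230 to 2793 CPM. In K5 tumour 1, Dsg3 stood at 421 CPM against 1102 to 1224 CPM in the other K5 tumours. Both libraries belong to the set of 4 that stands apart. Ivl tumour 3 also had the lowest summed level of 9 suprabasal keratinocyte genes among the tumours, at 11714 CPM, and 10801 CPM of fibroblast genes, the highest of the Ivl tumours. Without Ivl tumour 3 the number of members raised in Ivl tumours was still 9.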

How the results depend on the processing

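Scaling limited these results most. Members raised in Ivl tumours against skin numbered 9 of 10, and 5 with epithelial scaling, over all libraries and within the 15. Members lowered numbered 0, but 2 with epithelial scaling (also within the 15), 1 within the 15 libraries and 1 with library totals (also within the 15). Against K5/K14 tumours, 3 members were raised in Ivl tumours with epithelial scaling. In K5/K14 tumours against skin 9 were raised and 1 lowered, but 2 and 4 with epithelial scaling and 4 and 4 with it within the 15. Of all 31971 genes, epithelial scaling within the 15 raised 1102 and lowered 26274 in K5/K14 tumours, and 1286 and 22301 in Ivl tumours. Library totals within the 15 lowered 18153 in Ivl tumours. Signs turned for Dsg1a (-0.36 in Ivl, -0.61 in K5/K14 tumours with epithelial scaling, -0.20 and -0.67 within the 15), Dsc3 (-0.56 and -0.81, -0.57 and -0.85 within the 15, -0.0106 with library totals in Ivl tumours and -0.00137 with totals within the 15 in K5/K14 tumours) and Dsp (-0.33 and -0.80, -0.40 and -0.78 within the 15), which follows from the scale itself. Within the 15 libraries no ratio passed between Ivl tumours and skin, with 3 Ivl tumours left, and between Ivl and K5/K14 tumours Dsc1/Dsc3 became 0.10 and Dsg2/Dsg3 -0.15, neither past the threshold. The cause was not tested. With each library left out, members raised ranged from 7 to 9 in Ivl and from 8 to 9 in K5/K14 tumours, and lowered stayed at 0 and 1. Ratios that differed ranged from 3 to 5 in both comparisons with skin, 0 to 1 between Ivl and K5/K14 tumours and 0 to 2 between K5 and K14 tumours, the last without K5 tumour 1. Replicate numbers do not pair the libraries (correlations of deviations from -0.48 to 0.39). With the replicate block 7 members were raised in Ivl tumours, where Dsg1a and Dsp no longer passed, and 9 in K5/K14 tumours. Of all 32031 genes, 5446 and 7147 were then raised. Fitting only the groups compared gave 7 in Ivl tumours, where 4844 of 31794 genes were raised. DESeq2 called 9 raised in both, and 1 lowered in K5/K14 tumours. It called 6033 of 32031 genes raised in Ivl tumours, and 7034 raised and 11664 lowered in K5/K14 tumours. Dsp in Ivl tumours passed with DESeq2, without the filter, within the 15 libraries, with the set as a covariate and with the Dsg1 genes summed, but not with the other scalings, filterByExpr, only the groups compared or the replicate block.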
